A study of Oryza sativa with 4 samples.

Results

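The enzymes of glycolysis, the tricarboxylic acid (TCA) cycle and organic acid metabolism were represented by 96 of the 21495 gene probes of a rice oligonucleotide array. The probes were taken by name: every non-control probe was included whose description held the name of an enzyme of these pathways, from hexokinase to fumarase, and did not mention transport. By the enzyme named, 20 probes belonged to glycolysis up to phosphoenolpyruvate (PEP), 19 to the branch at PEP, 5 to pyruvate kinase, 5 to pyruvate decarboxylase, 6 to pyruvate dehydrogenase and its kinase, 16 to the TCA cycle, 13 to malate dehydrogenase, 5 to malic enzyme and 3 to isocitrate lyase. The 4 remaining probes carried the term succinate in the name of an enzyme of purine or arginine synthesis, and 0 probes were described as fumarase. The array names each probe by a rice cDNA clone and by the database entry most like it, often from another plant, so an enzyme name here is the name of that entry. There were 73 different descriptions, and 42 probes shared theirs with at least one other, so that some probes may report the same gene.

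Glycolysis turns sugars into PEP and pyruvate, and the TCA cycle oxidises pyruvate in the mitochondrion. In leaves these pathways also supply carbon skeletons for nitrogen assimilation: PEP carboxylase adds bicarbonate to PEP to give oxaloacetate, and citrate and isocitrate made from it lead to 2-oxoglutarate, the acceptor of ammonium. Malate dehydrogenases and malic enzymes move carbon and reducing power between malate, oxaloacetate and pyruvate. In tobacco, nitrate is known to raise transcripts for PEP carboxylase and other enzymes of organic acid synthesis.

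Leaf RNA of Oryza sativa indica var. Panvel seedlings, germinated without nutrients and 8 to 10 days old, was measured in 2 conditions with 2 biological replicates each. Light-grown plants were kept at 25 °C in 12 h diurnals and treated in the light, and etiolated plants were raised without light and given nitrate or water in the dark. In both, excised leaves received 120 mM nitrate, given as the potassium salt, or water as the control, so that nitrate and potassium cannot be told apart. The labels give the treatment as 2 h and the growth temperature as above, and the methods of the study give a shorter treatment and another temperature. Each of the 4 arrays compared nitrate-treated with water-treated RNA of 1 replicate in 2 colours. Nitrate was in Cy5 in replicate 1 and in Cy3 in replicate 2 of both conditions, so the replicate values given below are also the values within each dye orientation.

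On the arrays, 78 of the 96 probes were well above background in all 8 channels, 13 in some of them and 5 in none, against 70.8% of all probes in all 8. The labels name the dye of a channel but not its treatment. Channel 2 was read as nitrate, and the fold changes tabulated in the study served as a check only. The ratios followed these at r = 0.998 over 23 probes in light and 0.988 over 16 probes in dark. This check of direction is not independent of the study. Of 6 nitrate or nitrite reductase probes, 4 rose with nitrate in light and 3 in dark. Median signals were 555 to 698 on the arrays of light-grown leaves and 371 to 408 on those of etiolated leaves. In water-treated RNA the log2 of the summed signal of 9 light-harvesting probes was 18.0 to 18.8 in light-grown and 14.9 to 15.3 in etiolated leaves. That of 4 probes for protochlorophyllide oxidoreductase and phytochrome A suppressors, listed as markers of etiolated tissue, was 16.6 to 17.6 and 16.1 to 16.2, so it was not higher in etiolated leaves. Of 9 seed storage protein probes, 2 to 5 were above background in each channel. With whole leaves, fewer cells of a type and less RNA per cell cannot be told apart.

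The first question was how these enzymes responded to nitrate in each condition. Nearly all of them moved little. In light-grown leaves 2 of the 96 probes, or 2.08%, rose past the thresholds of the study for a differentially expressed gene (DEG), an absolute log2 ratio of at least 1 with an unadjusted p of at most 0.05, and 0 fell. The background over all probes in light was 3.74%, 2.28% up and 1.46% down, so the share among the carbon enzymes was below the background. In etiolated leaves 1 of 96 fell and 0 rose, or 1.04%, where 3.53% of all probes were DEGs, 1.81% up and 1.72% down. When limma's p-values were adjusted over all probes by Benjamini-Hochberg, 1 carbon enzyme passed in light and 0 in dark, with 0.312% and 0.223% of all probes. Without adjustment and at any fold, 17 passed in light, or 17.7% against 16.1% of all probes, and 7 in dark, or 7.29% against 15.9%. Without light replicate 1 or light replicate 2 the count in light was 4, and without either dark replicate 3. In dark it was 2 without dark replicate 1 and 3 without dark replicate 2. The median log2 ratio over the 96 was -0.025 in light and 0.0082 in dark, beside -0.0065 and -0.012 over all probes. Ratios had the same sign on both arrays for 60 of the 96 in light and 51 in dark, which is 62.5% and 53.1%, against 58.8% and 61.4% of all probes.

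**Figure D1:**
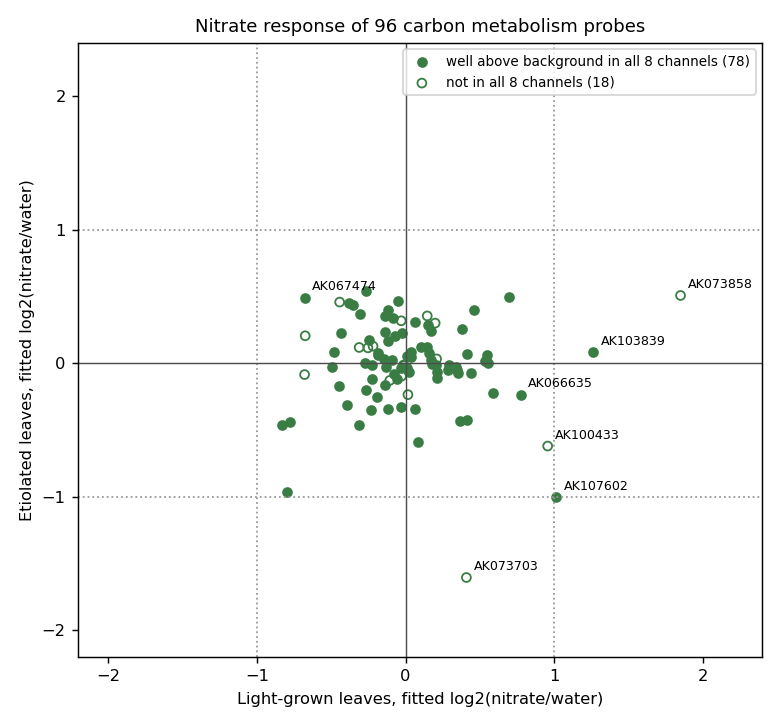
Fitted log2(nitrate/water) of the 96 probes in light-grown leaves (x axis) and etiolated leaves (y axis), each the mean of 2 arrays. Filled points mark the 78 probes well above background in all 8 channels, open points the other 18, and dotted lines a log2 ratio of 1 in either direction. Most points lie inside the dotted square, and of the 7 labelled probes 6 lie to the right of 0 in light with a lower value in dark, while AK067474 lies on the other side.

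The probe with the highest light response was AK073858, described as the NADP-dependent malic enzyme of bean. Malic enzyme decarboxylates malate to pyruvate and yields NADPH. Its log2(nitrate/water) was 1.99 in replicate 1 and 1.71 in replicate 2 of the light-grown leaves, and 0.44 and 0.58 in the etiolated ones. The 4 values were all above 0 and the light values stood clear of the dark ones. The fitted light response was 1.85 ± 0.15 (limma's moderated SE, n = 2, adjusted p = 0.0488), or 3.60-fold. Neither light array measured the water channel well above background, so 3.60-fold is not a strict lower bound. In dark the fit gave 0.51 ± 0.15 (adjusted p = 0.242). The light call was lost under normexp, another background correction, which gave 0.20.

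The other probe that rose in light was AK103839, described as the PEP carboxykinase of tomato. This enzyme turns oxaloacetate back into PEP and is known for sugar formation from stored lipid and organic acids in seedlings. The log2 ratio was 1.64 and 0.88 in light and 0.18 and -0.02 in dark. It was thus raised on both light arrays and near 0 on both dark ones. The light response was 1.26 ± 0.23 (adjusted p = 0.119) and the dark response 0.08 ± 0.23. Without light replicate 1 the light value was 0.88 and no longer a DEG. The maize-like PEP carboxykinase probe AK102392 gave -0.59 and -1.08 in light, with a fit of -0.83 ± 0.21 (adjusted p = 0.189), and so did not pass the fold threshold.

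The probe that fell in dark was AK073703, described as an indica PEP carboxylase. Its log2 ratio was -1.95 and -1.27 in dark and 0.42 and 0.40 in light. Both dark arrays were below both light arrays. The dark response was -1.61 ± 0.21 (adjusted p = 0.0943) and the light response 0.41 ± 0.21 (adjusted p = 0.445). In dark the nitrate channel was well above background on replicate 2 but not on replicate 1. With normexp the dark value was -0.31 and not a DEG. The probe AK070742 shares this description and was well above background in every channel. It gave 0.61 and 0.12 in light and -0.65 and -0.21 in dark, values of the same signs as those of AK073703, and it passed the DEG thresholds in neither condition.

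**Figure D2:**
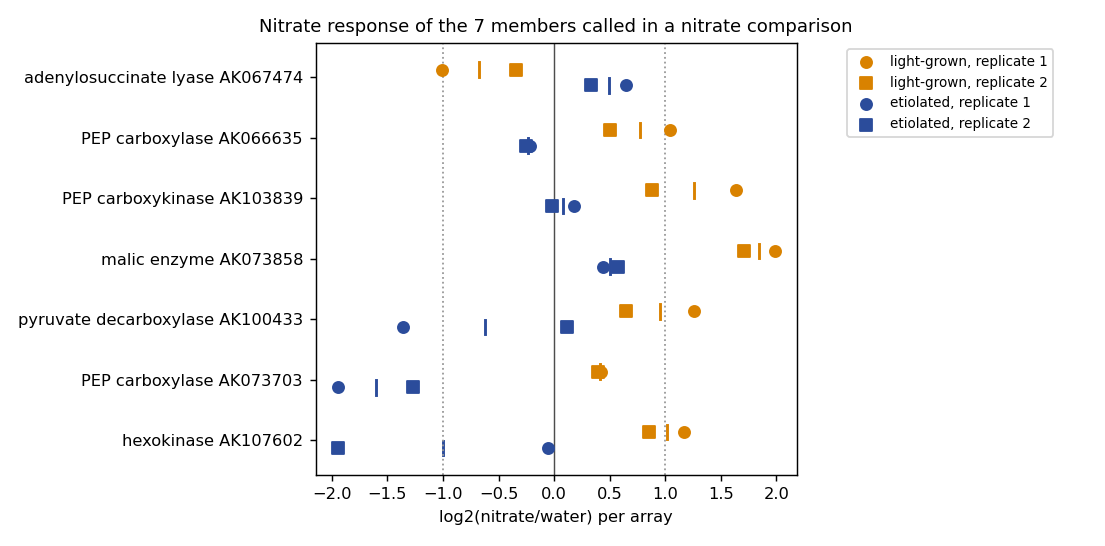
log2(nitrate/water) on each array (x axis) for the 7 probes past the DEG thresholds in light, in dark or in the contrast of both. Circles are replicate 1 (nitrate in Cy5), squares replicate 2 (nitrate in Cy3), short lines the fitted mean of the 2 arrays, and dotted lines a log2 ratio of 1 in either direction. For each probe both light points lie on one side of both dark points, and the dark arrays of AK107602 and AK100433 lie far apart.

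The next question was whether the response differed between conditions, tested as the contrast of dark minus light in the same fit. Of the 96 probes 7, or 7.29%, passed the DEG thresholds in this contrast, 6 of them lower in dark and 1 higher, and 1 of the 6, AK100433, was measured near background in light. Among all probes 6.51% passed, 3.54% lower and 2.98% higher, so the total was near the background. After adjustment limma called 0 of the 96 and 0 of all probes, and without adjustment at any fold 13 carbon enzymes passed, or 13.5% against 15.7% of all probes. The count was 3 without dark replicate 1 and 5 to 7 without any other single array.

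Of the 6 probes with the lower response in dark, 3 belonged to the 19 of the PEP branch, or 15.8% of these beside 3.54% of all probes. AK073703, the PEP carboxylase that fell in dark, differed by -2.02 ± 0.29 (adjusted p = 0.176). AK103839, the PEP carboxykinase that rose in light, differed by -1.18 ± 0.32 (adjusted p = 0.249). The third was AK066635, described as PEP carboxylase 1 of cotton, with log2 ratios of 1.05 and 0.50 in light and -0.22 and -0.26 in dark. It was above 0 on both light arrays and below 0 on both dark ones, and the difference was -1.01 ± 0.26 (adjusted p = 0.239). In neither condition alone was AK066635 a DEG, with 0.77 ± 0.18 in light and -0.24 ± 0.18 in dark. The call of AK103839 was lost without light replicate 1, at -0.80, dark replicate 1, at -1.28, or dark replicate 2, at -1.08. That of AK066635 was lost at -0.74, -1.03 and -0.99 without the same arrays. It was also lost with normexp, at -0.98, and with median centring in place of loess, at -0.97. The Feature Extraction log ratio and the deposited ratios each gave -0.99, which again was not a DEG. AK073703 was at -1.68 to -2.35 without each array in turn, but with normexp it was -0.61 and not a DEG. Of the 3, only AK103839 kept its call with normexp.

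PEP carboxylase as a group held 7 probes. Their fitted light responses ran from -0.25 to 0.77 and their dark responses from -1.61 to 0.32. In the contrast 2 of the 7, the probes just described, were lower in dark, beside 3.54% of all probes, and neither was a DEG with normexp. Of the 5 not called, AK100688, AK101274 and AK109734 were above background in at most 2 channels. The 2 probes described as PEP carboxylase kinase, which phosphorylates the carboxylase and makes it less sensitive to malate, gave light responses of 0.17 and 0.34 and dark responses of 0.24 and -0.03. The 7 PEP/phosphate translocator probes, for carriers that exchange PEP across the plastid envelope, ran from -0.38 to 0.59 in light and from -0.22 to 0.45 in dark with 0 called. At an unadjusted p without a fold threshold 2 of these 7 passed in light and 1 in dark, beside 16.1% and 15.9% of all probes. In the contrast 3 of the 7 passed in this way, beside 15.7% of all probes. Their fitted differences ran from -0.81 to 0.83, and 0 were DEGs.

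The malic enzyme AK073858 differed by -1.34 ± 0.21 (adjusted p = 0.184), a lower response in dark with a rise on all 4 arrays. It remained past the thresholds without each array in turn, at -1.20 to -1.48, and was -0.15 with normexp. The other 4 malic enzyme probes ran from -0.44 to 0.34 in light and from -0.34 to 0.22 in dark, and none was a DEG.

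The hexokinase probe AK107602 had, with AK073703, the lowest value of the 96 in the contrast. Hexokinase phosphorylates glucose at the entry to glycolysis, and this probe is described after an Arabidopsis hexokinase gene. Its log2 ratio was 1.17 and 0.86 in light, but -0.06 and -1.95 on the dark arrays. The light arrays were alike, whereas only dark replicate 2 was far below 0. The contrast was -2.02 ± 0.68 (adjusted p = 0.292), and it was -2.96 without dark replicate 1 and -1.07 without dark replicate 2, past the thresholds in both. It was lost without light replicate 1, at -1.86, or light replicate 2, at -2.18. Neither single-condition response was a DEG, at 1.01 ± 0.48 in light and -1.0 ± 0.48 in dark. A second hexokinase, AK067988, described as the chloroplast outer envelope hexokinase of spinach, gave -1.0 and -0.60 in light and -1.48 and -0.44 in dark. It was below 0 on all 4 arrays, with fits of -0.80 ± 0.30 and -0.96 ± 0.30 that were not DEGs. The remaining 7 hexokinase probes lay between -0.23 and 0.15 in light and between -0.35 and 0.35 in dark.

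The sixth probe with a lower dark response was AK100433, described as maize pyruvate decarboxylase 3, an enzyme of ethanolic fermentation. Its log2 ratio was 1.26 and 0.65 in light and -1.36 and 0.12 in dark. Both channels of both light arrays were not well above background, so that the light side of the contrast was a ratio of signals near background, and the dark arrays had opposite signs. The fitted contrast was -1.58 ± 0.58 (adjusted p = 0.316), and with dim probes left out the probe was not tested. The call was lost without light replicate 1, at -1.27, light replicate 2, at -1.88, or dark replicate 1, at -0.84, and was -2.32 without dark replicate 2. Of the other 4 pyruvate decarboxylase probes 0 were DEGs in light, in dark or in the contrast. Without a fold threshold 1 passed in light at an unadjusted p, as did 16.1% of all probes.

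The probe with the higher response in dark was AK067474, described as adenylosuccinate-AMP lyase of cowpea. This enzyme belongs to purine synthesis and entered the set through its name. The log2 ratio was -1.01 and -0.34 in light and 0.65 and 0.33 in dark, opposite in sign between conditions. The contrast was 1.17 ± 0.31 (adjusted p = 0.246), and it was lost at 0.83 without light replicate 1 and at 1.01 without dark replicate 1. The other purine and arginine enzymes differed between conditions by 0.29 to 0.47.

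The TCA cycle probes, on the way to 2-oxoglutarate and past it, gave small ratios. Of the 16 TCA cycle probes 0 were DEGs in light, in dark or in the contrast by limma. At an unadjusted p without a fold threshold 2 passed in light, 0 in dark and 0 in the contrast. Of all probes 16.1%, 15.9% and 15.7% did. Their fitted ratios ran from -0.48 to 0.36 in light and from -0.59 to 0.47 in dark. The citrate synthase probe AK072950, for the enzyme that condenses oxaloacetate with acetyl-CoA, gave -0.27 in light and 0.0033 in dark. The 5 isocitrate dehydrogenase probes ran from -0.45 to 0.36 in light and from -0.17 to 0.31 in dark. Aconitase, which turns citrate into isocitrate, is represented here by AK067183 with 0.24 and -0.51 in light and -0.09 and -0.25 in dark, values that changed sign between the light arrays.

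The pyruvate kinase probes, for the enzyme that makes pyruvate from PEP, ran from -0.075 to 0.44 in light and from -0.079 to 0.25 in dark with 0 of 5 called. At an unadjusted p without a fold threshold 0 of the 5 passed in either condition. The 13 malate dehydrogenase probes were spread more widely, from -0.78 to 0.69 in light and from -0.47 to 0.54 in dark, also with 0 DEGs. At any fold 3 of the 13 passed in light and 2 in dark, beside 16.1% and 15.9% of all probes. Among them, the nodule-enhanced type probe AK068064 gave -0.71 and -0.85 in light and AK071297, of the same description, gave -0.71 and -0.64, below 0 on both arrays. The tobacco-like NAD-malate dehydrogenase probe AK101730 was above 0 on all 4 arrays, at 0.49 and 0.90 in light and 0.45 and 0.54 in dark. Neither the light fit of 0.69 ± 0.16 (adjusted p = 0.170) nor the dark fit of 0.50 ± 0.16 (adjusted p = 0.279) reached the fold threshold.

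The same arrays also allowed the enzymes to be compared between etiolated and light-grown leaves that received water only. These RNAs never shared an array, and the comparison rests on normalization between arrays. It also uses the water samples that enter the nitrate ratios. Here the carbon enzymes differed widely: 40 of the 96 probes, or 41.7%, were DEGs, 22 higher in etiolated leaves and 18 lower. Among all probes 29.0% were DEGs, 14.6% higher and 14.4% lower. All 40 also had an adjusted p of at most 0.05, and without a fold threshold 62 of the 96 did, 33 higher and 29 lower, or 64.6% against 45.2% of all probes, 23.1% higher and 22.1% lower. Of the 78 probes well above background in all 8 channels 43.6% were DEGs, beside 31.1% of the 15211 tested probes of that kind on the array. The median difference over the 96 was 0.11, beside 0.012 over all probes, so higher and lower values balanced. In the nitrate channels, a comparison added after the data were seen, 41 of the 96 were DEGs, 25 higher and 16 lower, beside 31.4% of all probes, 15.4% higher and 15.9% lower.

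**Figure D3:**
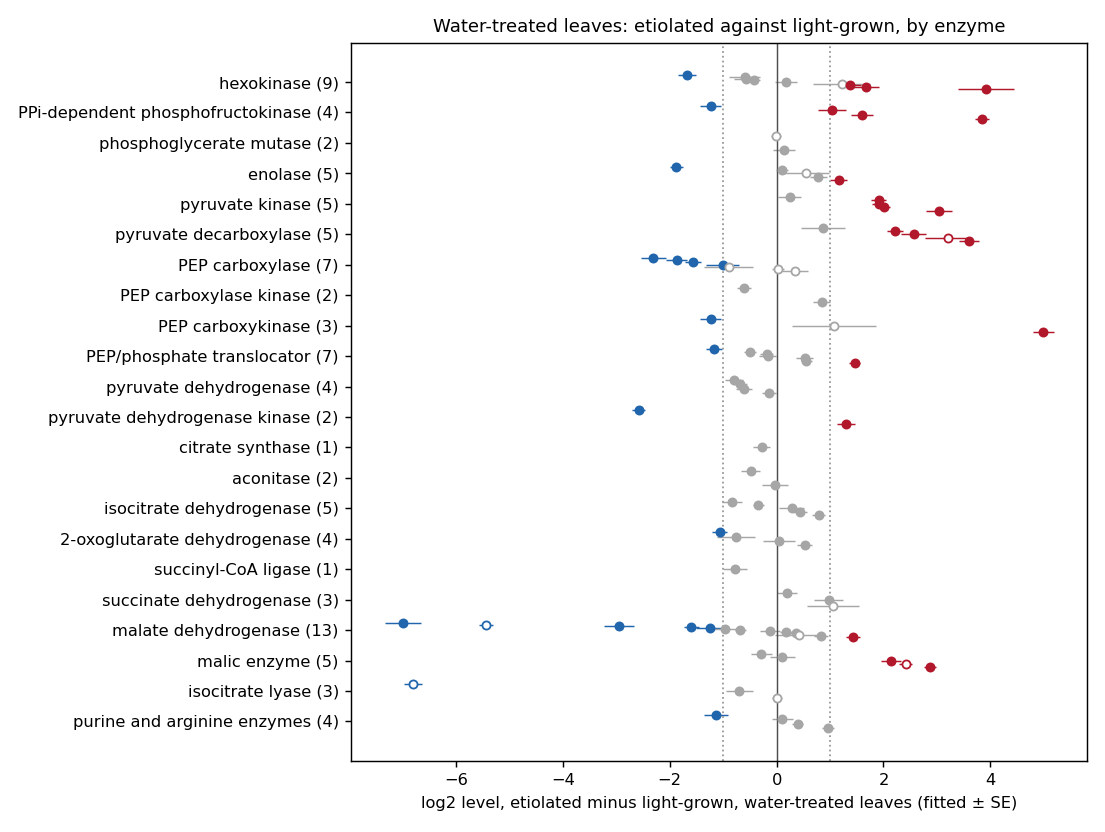
Difference in log2 signal between etiolated and light-grown water-treated leaves (x axis, fitted value with SE as a bar) for the 96 probes, by enzyme with the number of probes in brackets. Red points are DEGs higher in etiolated leaves, blue points DEGs lower, grey points neither, and white centres mark probes not well above background in the water channel of at least one of the 2 leaf types. Pyruvate kinase and pyruvate decarboxylase lie to the right of 0, 4 of the 7 PEP carboxylases and several malate dehydrogenases to the left of -1, and the TCA cycle probes lie near the dotted lines at 1 or inside them.

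Most probes of the enzymes that make and ferment pyruvate were higher in etiolated leaves. Of 5 pyruvate kinase probes 4 were higher and 0 lower, where 14.6% of all probes were higher and 14.4% lower. The tobacco-like probe AK103465 had log2 signals of 6.96 and 7.0 in light-grown and 10.12 and 9.93 in etiolated leaves. The ranges lay far apart, and the difference was 3.05 ± 0.24 (adjusted p = 2.41e-04), or 8.26-fold. The soybean-like AK100393 and the AK071391 and AK061668 probes, which share a description, differed by 1.92, 2.01 and 1.91. The plastid isozyme probe AK103375 differed by 0.25 ± 0.21 (adjusted p = 0.407) and was not called.

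Pyruvate decarboxylase, which makes acetaldehyde from pyruvate as the first step of ethanol formation, had 4 of 5 probes higher and 0 lower, beside the same 14.6% and 14.4% of all probes. The rice probe AK100501 had log2 signals of 12.86 and 13.13 in light-grown and 16.80 and 16.39 in etiolated leaves, where it was saturated on both arrays. Etiolated leaves were therefore at least 12.1-fold higher (adjusted p = 5.96e-05). AK100433, the maize-like form described above, had 2.60 and 3.1 in light-grown leaves, not well above background, and 6.11 and 6.02 in etiolated leaves. This gave 8.67-fold (adjusted p = 0.00189), which is not a strict lower bound, as the difference was 0.37 and not a DEG with normexp. AK069905 and the rice pdc1 probe AK100678 were higher by 2.56 ± 0.23 and 2.22 ± 0.15. The rice Pdc2 probe AK101594, with 15.41 and 16.02 against 16.79 and 16.38, was saturated in etiolated leaves and was not called at 0.87 ± 0.41.

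PEP carboxykinase AK103839 had the highest fitted increase of the 96, although the increase of a probe saturated in etiolated leaves, such as AK100501, is known only as a lower bound. Its log2 signal was 9.07 and 9.63 in light-grown and 14.25 and 14.43 in etiolated leaves. The difference of 4.99 ± 0.20 was 31.8-fold (adjusted p = 3.16e-05). The probe AK102392 of the same enzyme went the other way, with 12.15 and 12.21 in light-grown and 10.92 and 10.97 in etiolated leaves and a difference of -1.24 ± 0.20 (adjusted p = 0.00395). The 2 carboxykinase probes were thus on opposite sides, and the third, AK109774, described after a protozoan gene, was well above background in 2 channels only and not called.

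PEP carboxylase was lower in etiolated leaves for 4 of 7 probes and higher for 0, against 14.4% and 14.6% of all probes. AK073703 had log2 signals of 8.17 and 8.36 in light-grown and 5.95 and 5.97 in etiolated leaves. This was a difference of -2.31 ± 0.24 (adjusted p = 6.31e-04), and in the nitrate channels it was -4.32. AK070742 had 14.74 and 15.24 against 13.19 and 13.05, a difference of -1.87 ± 0.20 (adjusted p = 6.99e-04). AK066635 differed by -1.56 ± 0.16 and AK065425 by -1.01 ± 0.31. The 3 that were not called, AK100688, AK101274 and AK109734, were above background in at most 2 of the 8 channels. Of the PEP/phosphate translocators 1 of 7, near the background in each direction, rose, AK071036 by 1.46 ± 0.10, and 1 fell, AK060343 at -1.17 ± 0.16.

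In glycolysis before PEP, 7 of 20 probes were higher and 3 lower, against 14.6% and 14.4% of all probes. The beta subunit of the pyrophosphate-dependent phosphofructokinase, AK069095, had log2 signals of 12.31 and 12.25 in light-grown and 16.01 and 16.25 in etiolated leaves. This enzyme uses pyrophosphate in place of ATP and works in both directions between fructose phosphates. The difference was 3.85 ± 0.13, or 14.4-fold (adjusted p = 2.49e-05). Of the 3 alpha subunit probes AK099939 and AK070279 were higher by 1.61 and 1.03 and AK065052 was lower at -1.24, so that all 4 probes of the enzyme were called. Hexokinase AK107602 had 7.01 and 6.67 in light-grown and 10.60 and 10.91 in etiolated leaves. The difference of 3.91 ± 0.52 was 15.1-fold (adjusted p = 0.00173), and it was 1.89 in the nitrate channels. Of the other 8 hexokinases 2 were higher, by 1.38 and 1.67, and AK065656 was lower at -1.68 ± 0.17. The enolase probe AK073611 was higher by 1.16, AK069316 was lower at -1.88 and AK073662 differed by 0.78 ± 0.17, under the fold threshold.

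**Figure D4:**
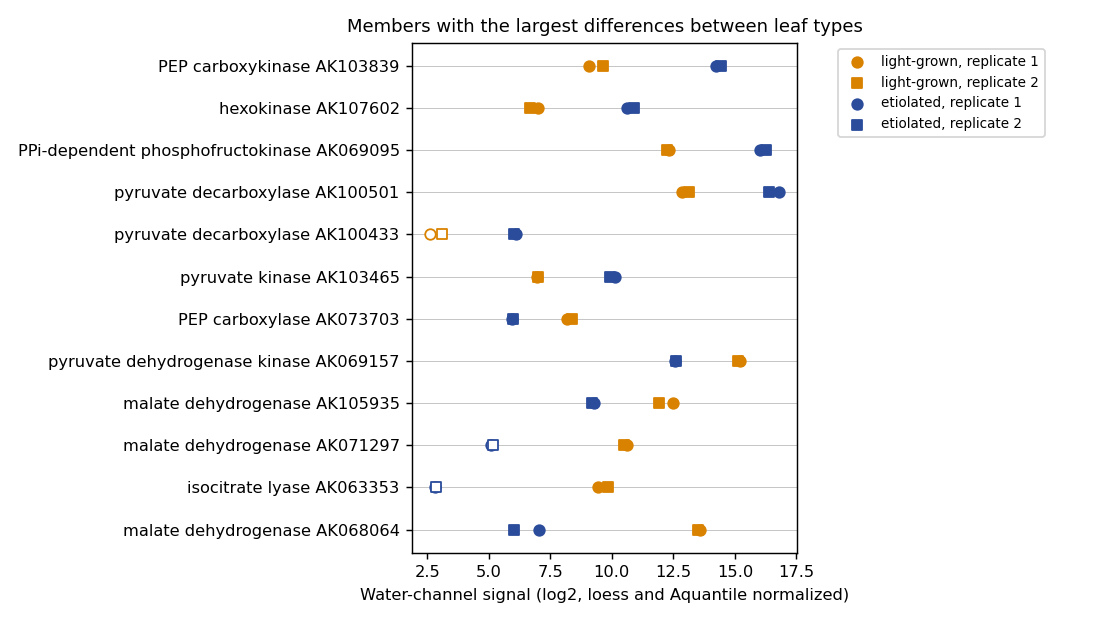
Water-channel log2 signal on each array (x axis, normalized within and between arrays) for 12 probes, the 6 highest and the 6 lowest by fitted difference between etiolated and light-grown leaves. Circles are replicate 1, squares replicate 2, and open symbols mark signals not well above background. For each of the 12 probes both etiolated points lie on one side of both light-grown points, and levels are to be compared within a probe only.

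The 3 lowest fitted differences were those of probes for malate dehydrogenase and isocitrate lyase. Of 13 malate dehydrogenase probes 5 were lower in etiolated leaves and 1 higher, against 14.4% and 14.6% of all probes. AK068064, the nodule-enhanced type named after alfalfa, had log2 signals of 13.59 and 13.49 in light-grown and 7.04 and 6.04 in etiolated leaves. The difference was -7.0 ± 0.33, or 128-fold (adjusted p = 4.60e-05). AK071297, of the same description, had 10.60 and 10.49 in light-grown leaves and was not well above background in etiolated ones. The latter were 43.1-fold lower (adjusted p = 2.20e-05), which is not a strict lower bound. Over the alternative analyses the difference was -5.46 to -3.31. The NADP-dependent form AK105935 was the third lowest of the malate dehydrogenase probes. This chloroplast enzyme exports reducing power as malate in the light. It had 12.48 and 11.91 in light-grown and 9.26 and 9.21 in etiolated leaves, a difference of -2.96 ± 0.28 (adjusted p = 4.63e-04).

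The mitochondrial malate dehydrogenase AK073698 was lower at -1.60 ± 0.14 and the glyoxysomal AK067105 at -1.24 ± 0.27, while the other glyoxysomal probe AK065955 was at -0.96 ± 0.28, under the fold threshold. The second probe of the mitochondrial description, AK071699, differed by 0.36 and was not called. The 2 cytoplasmic probes, AK059248 and AK066396, differed by 0.18 and -0.68 and were not called either. The tobacco-like NAD-malate dehydrogenase AK101730 was the one that rose, by 1.42 ± 0.13. Most light-harvesting probes moved with the decreases. Of 9, 7 were lower in etiolated leaves and 1 higher, against 14.4% and 14.6% of all probes. Their part in these results was not tested.

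Isocitrate lyase, which with malate synthase forms the glyoxylate cycle that turns fat-derived acetyl-CoA into sugar, was represented by the rice probe AK063353. Its log2 signal was 9.45 and 9.84 in light-grown leaves and 2.82 and 2.85 in etiolated leaves, where neither channel was well above background. Etiolated leaves were 112-fold lower by these signals (adjusted p = 2.20e-05), which is not a strict lower bound. Over the alternative analyses the difference was -6.91 to -3.09. The nitrate channel of light-grown leaves had 9.39 and 9.27. Nitrate gave log2 ratios of -0.06 and -0.57 there, not a DEG. The other 2 isocitrate lyase probes, described after a fungus and an orchid, were above background in 5 and 0 channels and were not called.

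Malic enzyme was higher in etiolated leaves for 3 of 5 probes and lower for 0, against 14.6% and 14.4% of all probes. The 2 probes of the rice NADP-dependent enzyme gave like values. AK070360 had 10.22 and 10.26 in light-grown and 13.02 and 13.21 in etiolated leaves, a difference of 2.87 ± 0.11 (adjusted p = 3.04e-05), and AK072842 had 11.35 and 11.58 against 13.55 and 13.66, a difference of 2.14 ± 0.19 (adjusted p = 3.60e-04). AK073858, the form with the light response to nitrate, had 3.41 and 3.48 in light-grown leaves, not well above background. It had 5.86 in both etiolated replicates, 5.34-fold more, which is not a strict lower bound. With normexp this difference was 0.49 and not a DEG. The probe therefore was lowest in light-grown leaves without nitrate, and nitrate-treated light-grown leaves, at 5.40 and 5.19, were below etiolated leaves with water and those with nitrate, at 6.30 and 6.43.

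The pyruvate dehydrogenase complex joins glycolysis to the TCA cycle and is switched off by phosphorylation through its kinase. The kinase had 2 probes, which moved in opposite directions. The indica kinase 1 probe AK069157 had log2 signals of 15.21 and 15.13 in light-grown and 12.55 and 12.63 in etiolated leaves, a difference of -2.58 ± 0.13 (adjusted p = 5.32e-05). The maize-like isoform 1 probe AK100033 had 12.66 and 13.00 against 14.22 and 14.05, a difference of 1.30 ± 0.17 (adjusted p = 0.00157). The 4 probes of the enzyme itself were below 0, from -0.80 to -0.15, and 0 were DEGs, although 3 passed after adjustment without a fold threshold. AK069299, for the E1 alpha subunit, had 14.29 and 14.58 in light-grown and 13.92 and 13.73 in etiolated leaves.

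The TCA cycle probes differed by small amounts. Of 16 probes 1 was a DEG, or 6.25%, beside the 29.0% of all probes. Without a fold threshold 4 were higher and 4 lower at an adjusted p of at most 0.05, or 50%, near the 45.2% of all probes. The DEG was AK098921, one of 3 probes for the E1 component of 2-oxoglutarate dehydrogenase, at -1.07 ± 0.15 (adjusted p = 0.00185). The other 15 ran from -0.84 to 1.06, and in the nitrate channels 3 of the 16 were higher and 1 lower. Aconitase AK067183 had 14.29 and 14.69 against 13.97 and 14.04, and citrate synthase AK072950 differed by -0.28. Of the purine and arginine enzymes AK067474 was lower at -1.13 ± 0.22 (adjusted p = 0.00750), which without light replicate 1 was -0.93 and not a DEG, and the argininosuccinate synthase AK071066 higher by 0.96, under the fold threshold.

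A further 71 probes were taken by name for other enzymes in or next to these pathways. The names also matched enzymes outside them, such as the 2-isopropylmalate synthase AK066890 and short chain alcohol dehydrogenases. With nitrate 1 rose and 0 fell in light, and 1 rose and 0 fell in dark, or 1.41% in each, below the 3.74% and 3.53% of all probes. The one that rose in light was AK109382, described as allyl alcohol dehydrogenase of tobacco. In the contrast 5 were higher in dark and 1 lower, or 8.45% beside 6.51%, whereas the 96 enzymes above had 1 higher and 6 lower, and this difference was not tested. Between etiolated and light-grown leaves 14 were higher and 14 lower, or 39.4% beside 29.0%. Of 25 probes with alcohol dehydrogenase in their description 6 were higher and 6 lower, or 48%. Of all probes 14.6% were higher and 14.4% lower. Among the lower ones, AK070356 and AK072298 were well above background in 0 channels, and AK070356 was also 1 of the 5 higher in the contrast. The higher ones included rice alcohol dehydrogenase 2, AK102799, at 4.68 and alcohol dehydrogenase 1, AK069330, at 3.32, forms that reduce acetaldehyde to ethanol in the step after pyruvate decarboxylase, but AK073964, of the same description as AK069330, was at 0.51 and not called. The lower ones included AK066331, described after an Arabidopsis alcohol dehydrogenase, at -4.09. AK070393 and AK060453, described as allyl alcohol dehydrogenase of tobacco, were 33.0-fold and 8.21-fold lower but not well above background in etiolated leaves. Cytosolic phosphoglycerate kinase AK070705 and cytosolic pyruvate orthophosphate dikinase AK065739 were higher by 2.68 and 2.05. The chloroplast phosphoglycerate kinase AK062214 and the carbonic anhydrase AK059525, which supplies bicarbonate, were lower at -2.64 and -3.05. With nitrate in dark AK059525 was the one probe that rose, by 1.27.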

How the data were processed

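Leaf RNA of 4 samples was measured on 2-colour Agilent arrays on 1 slide in 1 scan. The authors deposited scanner output, in which Feature Extraction 9.5.3.1 (per the file headers) had made background-subtracted, dye-normalized intensities and a log10 ratio per spot, and a table of normalized ratios from GeneSpring. From the processed intensities of each array log2(nitrate/water) was calculated, loess-normalized (span 0.3, 4 iterations), without control and outlier spots, and averaged over 2 spots per probe. limma 3.58.1 (R 4.3.3) fitted all 4 arrays with coefficients for light and dark, whose contrast tested the difference. Water channels were compared by a separate-channel fit after Aquantile normalization (statmod 1.5.0). DEGs were called at the fold and p thresholds of the study, which names no test: an absolute log2 value from 1 upwards with p, before adjustment, no higher than 0.05. Adjusted p-values are Benjamini-Hochberg over all probes. A probe was well above background where at least 1 of its 2 spots was. Where a group was saturated on both arrays, a fold is given as at least the measured ratio. Where it was not well above background on both, the higher of the measured value and the lowest signal well above background was used. Such a fold is not a strict lower bound. Methods were tested on simulated data with normally distributed noise. The simulation held no background floor and no saturation, so it does not bear on probes near either. The number of arrays limits the precision.

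Probes named are those called in a nitrate comparison, the 6 largest changes each way between leaf types, and the probe of highest mean signal in each enzyme group, and further probes were named after their values were seen. The potato-like NAD-malic enzyme AK065801 was counted with the malic enzymes. The enzymes and gene lists were chosen with earlier results of these data known. No clone could be matched to a RefSeq locus, and no sequence is shown. Figures used matplotlib 3.10.9.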

Additional observations from a re-analysis of the deposited data

Results flagged for a closer look

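For 7 of the 96 carbon enzyme probes the nitrate response differed between etiolated and light-grown leaves past the DEG thresholds in the contrast of dark minus light (limma, unadjusted p), and 0 of them passed after adjustment. On the log2 scale the difference was -2.02 for the PEP carboxylase AK073703 and -2.02 for the hexokinase AK107602, whose dark arrays disagreed. It was -1.58 for the pyruvate decarboxylase AK100433, measured in light on dim spots, and -1.34 for the malic enzyme AK073858, dim in the water channel in light. It was -1.18 for the PEP carboxykinase AK103839, -1.01 for the PEP carboxylase AK066635 and 1.17 for the adenylosuccinate-AMP lyase AK067474. At 7.29% this share was near the 6.51% of all probes.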

How the results depend on the processing

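Counts of called probes in the nitrate comparisons were small and moved with the processing, and the cause was not tested. With normexp (offset 50) 1 probe was called in light, 0 in dark and 3 in the contrast, against 2, 1 and 7, and at an adjusted p of at most 0.05 the counts were 1, 0 and 0. In dark the deposited ratios, leaving out dim probes and a log2 threshold of 0.95 each gave 2. In the contrast the log ratio of Feature Extraction gave 4 and a test without moderation 2. Leaving out 1 array at a time gave 3 to 4 in light, 1 to 3 in dark, 3 to 7 in the contrast and 41 in each case between leaf types, where every other alternative gave 33 to 42 against 40. Each ratio pairs nitrate with water within 1 replicate. No paired analysis was possible because the labels give no replicate numbers that would pair light with dark arrays. With the dye orientation as a replicate block 6 probes were called in the contrast, 2 in light and 1 in dark. All arrays shared 1 slide and 1 scan, so the block for slide or scan was not run. Of the calls of single named probes over the alternatives, 326 were kept and 43 lost, with 1 change of direction: adenylosuccinate-AMP lyase AK067474 differed between leaf types by 0.036 in the nitrate channels, chosen after seeing the data, in place of -1.13. The losses fell mostly on the nitrate comparisons. Each call in the contrast was lost under 2 to 9 of its 13 or 14 alternatives. Each call in light or dark was lost under 1 or 2 of 15, and each between leaf types under at most 1 of 12. Signals near background limit AK073858, AK100433, AK073703, AK063353 and AK071297, and saturation limits pyruvate decarboxylase.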
